A study of Mus musculus with 6 samples.

Results

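Small leucine-rich proteoglycans are secreted matrix proteins, and their transcripts were followed here in fibroblasts sorted from mouse breast tumours. The genes were Dcn, Bgn, Lum, Fmod, Ogn, Omd, Aspn, Prelp and Podn, with the lubricin gene Prg4 added, taken by name from the deposited table. All 10 were present among its 12235 genes. Of these 10, 9 passed a filter on low values and entered the test with 9646 genes in all, and Omd, at 5 reads over the series, did not. The libraries were 3 of Ly6C+ and 3 of Ly6C- podoplanin-positive cancer-associated fibroblasts (PDPN+ pCAFs). They were sorted as PI-, Ter119-, CD45- and EpCAM- cells, a gate meant to leave out dead, erythroid, immune and epithelial cells. Podoplanin is a surface glycoprotein of many tumour fibroblasts, and Ly6C a surface protein that parts them. Both groups came from tumours of 4T1 cells, a BALB/c mammary carcinoma line, of which 100000 cells were put into a fat pad of the mammary gland in BALB/c females aged 8 weeks, and tumours were taken at a size of 1 cm. The groups share all of this and differ in the Ly6C gate. The labels call the injected line once 4T1-GFP and once 4T1-luc, and they do not say whether the 3 libraries of a group came from separate mice, so p-values measure the spread between these libraries only.

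The family is known for a core of leucine-rich repeats, which binds collagen fibrils and sets their spacing and width, and for sugar chains attached to that core. Most class I members carry chondroitin or dermatan sulfate chains, several class II members keratan sulfate, and the proteins also bind growth factors such as TGF-beta. In connective tissue they are products of fibroblasts. Lubricin is no leucine-rich protein but a mucin-like glycoprotein that lubricates joint surfaces.

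The libraries held 1176909 to 2818269 reads on the genes of the table, with the Ly6C+ libraries the deeper ones (2150531 to 2818269 against 1176909 to 1721480). The fibroblast markers Pdgfra, Pdgfrb, Col1a1, Col1a2, Pdpn, Thy1, Fap and Vim summed to normalised counts of 41076 to 50816 in every library, most of it Col1a2, Vim and Col1a1. Of the 8, Pdgfra and Pdpn rose (2.38-fold and 2.19-fold) and Pdgfrb fell, 2.4-fold higher in Ly6C- pCAFs. Epcam did not exceed 2.95 in any library. Ptprc, the CD45 gene, had 8, 2 and 2 reads in Ly6C+ replicates 1 to 3, a level of at most 4.88, and none in the Ly6C- libraries. Ly6c1, which encodes the sorted protein, was at 2316 to 3849 in the Ly6C+ libraries against 65.6 to 88.6 in the Ly6C- libraries. Mural cell markers, 8 genes of pericytes and smooth muscle, summed to 190 to 246 in the Ly6C+ libraries against 604 to 1109 in the Ly6C- libraries, and 5 of the 7 tested fell (Cspg4, Mcam, Myh11, Notch3 and Des). Mcam and Myh11 passed the filter only through the Ly6C- libraries (Ly6C+ means 1.16 and 0.203), so they could hardly be called higher. Kcnj8, also a mural marker, rose 3.92-fold, and Abcc9, at 15.2 to 51.0 against 5.91 to 14.5, was uncalled. The sums of 7 epithelial markers were 12.8 to 43.3 against 119 to 356 (2 of 4 tested fell, and Krt5 was at 0 in all Ly6C+ libraries). The genes that fell, Krt14 and Krt19, also passed the filter only through the Ly6C- libraries (Ly6C+ means 0.711 and 3.92). The sums of 3 endothelial markers were 6.01 to 11.6 against 27.5 to 102. Kdr, the 1 endothelial marker tested, fell, at 4.51 to 8.54 against 10.5 to 94.4. Pecam1 had 10 reads in each group and Lyve1 had 0 in the Ly6C+ and 25 in the Ly6C- libraries. Of 7 macrophage markers the sums were 132 to 352 against 56.4 to 170 (1 of 6 tested rose). Those of 4 Schwann cell markers were 19.5 to 30.1 against 9.18 to 14.8 (2 of 2 tested uncalled). Those of 4 adipocyte markers were 78.0 to 142 against 9.36 to 18.7, most of it Fabp4 (58.7 to 128 against 8.51 to 13.8). Of the 2 adipocyte markers tested Fabp4 rose and Pparg was uncalled, and Adipoq and Cidec had 2 and 1 reads, all in Ly6C+ libraries. The T cell gene Cd3e, the lymphocyte marker measured, was at 88.7 to 165 against 10.5 to 19.7, and no erythroid marker was measured. The sum of 5 granulocyte markers was 703 in Ly6C+ replicate 1 and at most 11.3 in the other 5 libraries, and S100a8 and S100a9 were at 0 in all Ly6C- libraries. In bulk libraries, fewer cells of a type and less RNA per cell cannot be told apart.

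Chromosomal neighbours of the family are shown first, because 1 pair moved in opposite directions and others moved together. Prelp and Fmod lie 116 kb apart on chromosome 1 with no coding gene between them, and Prelp was higher and Fmod lower in Ly6C+ pCAFs. Aspn and Ogn lie on chromosome 13 on either side of Omd, and both were higher in Ly6C+ pCAFs, as were the adjacent Dcn and Lum on chromosome 10. The sequences are the stretches from 250 to 21 bases before the RefSeq start site, from the GRCm38.p6 table of promoters, each printed 5′ to 3′ on the strand of its gene (Prelp at chr1:133921422-133921651, minus strand, Fmod at chr1:134037004-134037233, plus strand, Aspn at chr13:49544193-49544422 and Ogn at chr13:49607765-49607994, both plus strand). Capitals mark matches to the letters searched, and only the Ogn stretch has any.
Prelp: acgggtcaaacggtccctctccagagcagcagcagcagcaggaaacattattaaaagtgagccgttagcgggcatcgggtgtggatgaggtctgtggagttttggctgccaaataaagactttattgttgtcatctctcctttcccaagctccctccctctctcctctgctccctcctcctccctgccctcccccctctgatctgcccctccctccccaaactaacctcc
Fmod: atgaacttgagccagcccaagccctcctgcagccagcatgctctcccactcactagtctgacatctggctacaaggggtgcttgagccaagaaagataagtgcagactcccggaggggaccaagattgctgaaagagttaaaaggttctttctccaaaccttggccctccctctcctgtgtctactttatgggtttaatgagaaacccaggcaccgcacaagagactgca
Aspn: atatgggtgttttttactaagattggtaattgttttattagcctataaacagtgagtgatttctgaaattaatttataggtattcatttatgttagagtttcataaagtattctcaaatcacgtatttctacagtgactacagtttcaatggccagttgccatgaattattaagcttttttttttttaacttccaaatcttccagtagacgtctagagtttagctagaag
Ogn: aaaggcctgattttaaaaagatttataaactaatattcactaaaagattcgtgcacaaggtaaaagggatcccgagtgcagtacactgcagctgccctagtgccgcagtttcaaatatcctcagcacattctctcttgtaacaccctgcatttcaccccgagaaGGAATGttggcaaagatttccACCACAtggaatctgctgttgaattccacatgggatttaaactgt

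Windows of 300 bases, from 250 before to 50 after the start, were matched by symbol for 7 of the 10 members (Prelp, Fmod, Podn, Aspn, Omd, Ogn and Bgn). They were searched on both strands for TGTGGT (RUNX core), TGANTCA (AP-1) and GGAATG (TEAD). Ogn held 1 RUNX core match, as ACCACA from base 65 before the start, and 1 TEAD match from base 86, which do not overlap. The other 6 members held no match to any of these letters in the window. Of all 32851 windows, 16.8% held the RUNX letters, 7.81% the AP-1 letters and 14.7% the TEAD letters. A match describes the letters and is no measurement of binding.

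The comparison of Ly6C+ with Ly6C- pCAFs asks how the fibroblasts parted by Ly6C differ. Of the 9 members tested, 7 rose and 1 fell in Ly6C+ pCAFs (limma across all genes, Benjamini-Hochberg adjusted p under 0.05), and 1, Bgn, did not pass. Over all genes tested, 9.41% rose and 7.66% fell, together 17.1%. The members' median log2 fold change was 2.34, beside -0.000704 for all genes tested. The 3 values of each group did not overlap for 8 of the 9, beside 33.1% of all genes tested. The 7, the 8 and the median include Ogn, which passed the filter only through its Ly6C+ libraries (mean 29.2, against 1.22 in Ly6C- libraries). A gene that enters in this way can hardly be called lower, so its call is no separate support. With a filter at a mean of 20, which leaves Ogn out, 6 members rose. Lum and Aspn pass that filter only through their Ly6C+ libraries (means 87.6 and 43.8, against 16.7 and 9.13 in Ly6C- libraries). The same limit therefore holds for the 6. Levels below are normalised counts. A fold is the mean of one group over that of the other, and a log2 fold change is Ly6C+ minus Ly6C- on log2(value + 1), which makes changes of genes with low values look smaller.

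**Figure D1:**
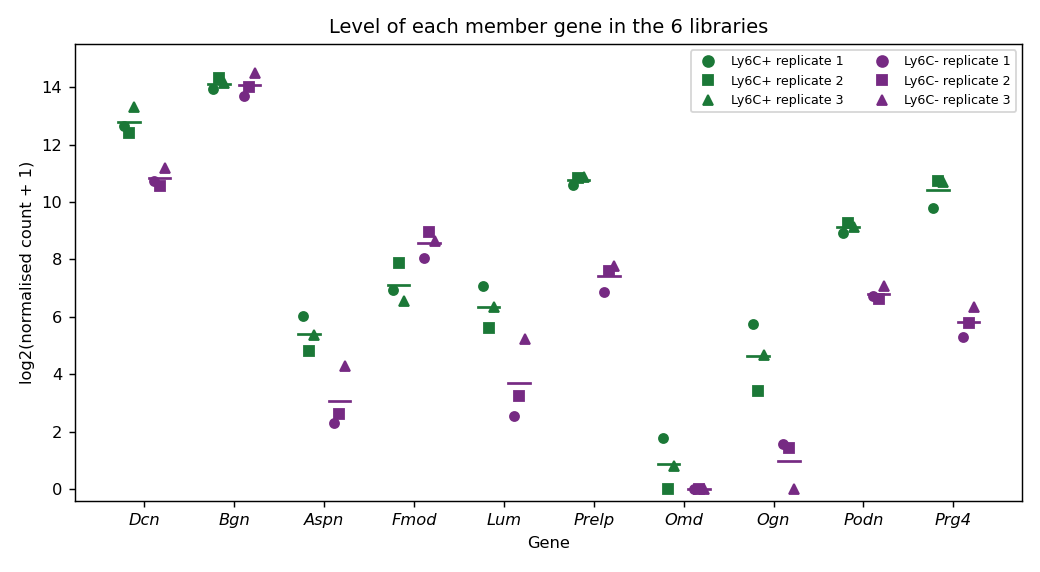
Level of each of the 10 member genes, as log2(normalised count + 1), in 3 Ly6C+ (green) and 3 Ly6C- (purple) libraries. Points are libraries and short lines are group means. The groups are apart for all genes but Bgn and Omd, with the Ly6C- points on top for Fmod alone.

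Among the class I genes, Dcn rose and Bgn did not pass. Dcn encodes decorin, which coats collagen fibrils and binds TGF-beta and growth factor receptors. Dcn (chr10:97479609-97518143, plus strand, GRCm38, the mm10 build) was at 6459, 5390 and 10233 in Ly6C+ replicates 1 to 3 and at 1699, 1522 and 2313 in Ly6C- replicates 1 to 3, 3.99-fold higher in Ly6C+ pCAFs (7360 ± 2545 against 1844 ± 415, SD, n = 3 each). Its lowest Ly6C+ value was above its highest Ly6C- value (log2 fold change 1.96, SE 0.25; adjusted p = 0.000271 by limma). Bgn (chrX:73483602-73495933, plus strand) encodes biglycan, the closest relative of decorin, which is known to signal through Toll-like receptors when released. It was at 15602, 20155 and 17901 in Ly6C+ replicates 1 to 3 and at 13350, 16342 and 22781 in Ly6C- replicates 1 to 3. The groups overlapped over their whole range, and both the highest and the lowest value were in Ly6C- libraries. The log2 fold change of Bgn was 0.06, with a 95% interval of -0.45 to 0.57 (adjusted p = 0.904 by limma).

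Bgn was in the top 6 genes by normalised count in each library, and Dcn ranked 11th to 33rd in Ly6C+ and 87th to 141st in Ly6C- libraries. These are ranks of reads from 3′ ends, not divided by transcript length. The ratio of Dcn to Bgn within a library does not depend on its scaling. It was 0.414, 0.267 and 0.572 in the Ly6C+ libraries against 0.127, 0.0931 and 0.102 in the Ly6C- libraries, so that every Ly6C+ library was above every Ly6C- library. The mean log2 ratio differed by 1.91 (two-sided exact permutation p = 0.1, the smallest that 3 against 3 can give; 0.4 adjusted over 4 such tests).

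Aspn, the third class I gene, encodes asporin, which binds collagen and TGF-beta and is known to carry no such sugar chain. Aspn (chr13:49544443-49567565, plus strand) was at 64.0, 27.1 and 40.2 in Ly6C+ replicates 1 to 3 and at 3.94, 5.10 and 18.4 in Ly6C- replicates 1 to 3, 4.79-fold higher (log2 fold change 2.34, SE 0.50; adjusted p = 0.00778 by limma). The groups did not overlap, but Ly6C- replicate 3 was well above the other two of its group, and without it the fold was 9.68. Without Ly6C+ replicate 1 Aspn missed the threshold (log2 fold change 2.02; adjusted p = 0.0560 by limma).

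The class II genes went both ways. Prelp encodes a protein that binds collagen and heparan sulfate and is known to link basement membranes to the matrix below. Prelp (chr1:133910304-133921414, minus strand) was at 1525, 1819 and 1885 in Ly6C+ replicates 1 to 3 and at 116, 194 and 220 in Ly6C- replicates 1 to 3, 9.86-fold higher. All 3 Ly6C+ libraries lay close together, with an SD of 11% of the mean, and far above the other group (1743 ± 191 against 177 ± 54.1; log2 fold change 3.34, SE 0.23; adjusted p = 3.78e-06 by limma). Fmod, which encodes fibromodulin, a collagen-binding keratan sulfate proteoglycan that takes part in cross-linking, was the member that fell. Fmod (chr1:134037254-134048277, plus strand) was at 123, 232 and 91.9 in Ly6C+ replicates 1 to 3 and at 265, 497 and 402 in Ly6C- replicates 1 to 3, 2.61-fold higher in Ly6C- pCAFs (149 ± 73.8 against 388 ± 117; log2 fold change -1.44, SE 0.32; adjusted p = 0.0103 by limma). The groups did not overlap, although Ly6C+ replicate 2 at 232 was near Ly6C- replicate 1 at 265. Without Ly6C+ replicate 1 or Ly6C- replicate 2 Fmod did not pass (adjusted p = 0.0553 and 0.0555).

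The Prelp to Fmod ratio, chosen after the values were seen and given as a description, was 12.4, 7.83 and 20.5 in the Ly6C+ libraries against 0.439, 0.390 and 0.547 in the Ly6C- libraries. Prelp thus had more reads than Fmod in all 3 Ly6C+ and fewer in all 3 Ly6C- libraries. Optc, the opticin gene 2.30 kb from Prelp on the side away from Fmod, was under the filter with 16 and 9 reads.

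Lum encodes lumican, which shares its binding site on collagen with fibromodulin and is known from the transparent cornea. Lum (chr10:97565128-97572703, plus strand) was at 134, 48.1 and 80.4 in Ly6C+ replicates 1 to 3 and at 4.92, 8.51 and 36.7 in Ly6C- replicates 1 to 3, 5.24-fold higher (log2 fold change 2.66, SE 0.59; adjusted p = 0.00940 by limma). The gap between the groups was narrow, from 36.7 in Ly6C- replicate 3 to 48.1 in Ly6C+ replicate 2. The fold was 13.0 without Ly6C- replicate 3, and Lum did not pass without Ly6C+ replicate 1 (adjusted p = 0.0629). Lum is the neighbour of Dcn, 47.0 kb downstream. The Dcn to Lum ratio was 48.1, 112 and 127 in the Ly6C+ libraries against 345, 179 and 63.0 in the Ly6C- libraries, and the groups overlapped (log2 difference -0.83; two-sided exact permutation p = 0.4, also 0.4 adjusted over the 4 tests).

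Omd encodes osteomodulin, a keratan sulfate proteoglycan known from bone. Omd (chr13:49582462-49592822, plus strand) had 4, 0 and 1 reads in the Ly6C+ and none in the Ly6C- libraries. At the Ly6C+ rate, 3.01 reads would fall on the 4365829 reads of the Ly6C- libraries, so a difference was not detectable at this depth.

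Ogn, of class III, encodes osteoglycin or mimecan, a small proteoglycan that is known to affect collagen fibril size. Ogn (chr13:49608046-49624501, plus strand) was at 53.1, 9.77 and 24.7 in Ly6C+ replicates 1 to 3 and at 1.97, 1.70 and 0 in Ly6C- replicates 1 to 3. These were 87, 13 and 32 reads against 2, 2 and 0, so the Ly6C- level rests on 4 reads (95% exact Poisson interval 1.09 to 10.2 reads, counting error only). The fold was 23.9, and 14.1 without Ly6C+ replicate 1 or 31.8 without Ly6C+ replicate 2 (log2 fold change 3.62, SE 0.64; adjusted p = 0.00249 by limma). Ogn lay 15.2 kb from Omd and Omd 14.9 kb from Aspn. The Ogn to Aspn ratio was 0.829, 0.361 and 0.615 in Ly6C+ libraries and 0.5 and 0.333 in Ly6C- replicates 1 and 2, and it could not be formed in Ly6C- replicate 3, where Ogn had no read (log2 difference 0.48; two-sided exact permutation p = 0.4, also 0.4 adjusted over the 4 tests).

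Lum, Aspn and Ogn were alike in which Ly6C+ libraries were high: replicate 1 had the highest and replicate 2 the lowest value of all 3 genes. Ly6C+ replicate 1 is the library with the granulocyte markers (S100a8 179 and S100a9 478), whose link to the 3 genes was not tested. Without that library, Dcn, Prelp, Podn, Prg4 and Ogn passed the test, and Lum, Aspn and Fmod missed it at log2 fold changes of 2.30, 2.02 and -1.35, against 2.66, 2.34 and -1.44 with all libraries. Calls over all genes went from 1647 to 1129 with 1 library fewer.

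Podn, of class V, encodes podocan, which binds collagen and is known to restrain the growth of smooth muscle cells. Podn (chr4:108014791-108096445, minus strand) was at 489, 613 and 566 in Ly6C+ replicates 1 to 3 and at 106, 97.8 and 132 in Ly6C- replicates 1 to 3, 4.95-fold higher. Its SD in Ly6C- libraries was 16.1% of the mean, the smallest such share among the members tested (556 ± 62.3 against 112 ± 18.0; log2 fold change 2.30, SE 0.18; adjusted p = 8.31e-06 by limma), and its groups were far apart. Prg4 encodes lubricin. Prg4 (chr1:150449412-150466165, minus strand) was at 887, 1700 and 1658 in Ly6C+ replicates 1 to 3 and at 38.4, 54.4 and 80.0 in Ly6C- replicates 1 to 3, a fold of 24.6 (log2 fold change 4.60, SE 0.30; adjusted p = 2.43e-06 by limma). Ogn, at 23.9 on 4 Ly6C- reads, was close to this fold. The order of the 2 genes turned without Ly6C- replicate 1 (34.3 for Ogn and 21.1 for Prg4) or 2 (29.7 and 23.9). It also turned without Ly6C+ replicate 2 (31.8 and 22.1) or 3 (25.7 and 22.5). The order held without Ly6C+ replicate 1 (14.1 and 29.2) or Ly6C- replicate 3 (15.9 and 30.5). The lowest Ly6C+ value of Prg4, in replicate 1, was more than 10 times its highest Ly6C- value. The 8 measured markers of tendon, cartilage and joint lining summed to 865 to 1815 against 375 to 984. Of the 5 tested Comp and Cilp rose and Scx fell, none of them with a call that held without each library. Comp passed the filter only through its Ly6C+ libraries (mean 21.0, against 2.16 in Ly6C- libraries), so its call is no separate support. The Comp call ended without Ly6C+ replicate 2 or 3 or Ly6C- replicate 2 or 3 (adjusted p = 0.0567 to 0.162, limma; log2 fold change 2.69, or 2.00 to 3.38 without 1 library), that of Cilp without Ly6C+ replicate 2 or Ly6C- replicate 3 (0.0703 and 0.0503), and that of Scx without Ly6C+ replicate 1 or Ly6C- replicate 2 (0.0664 and 0.107). Tnmd had 18 and 10 reads and Col2a1 4 and 0 in the Ly6C+ and the Ly6C- libraries. The part of such cells in the Prg4 value was not tested.

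**Figure D2:**
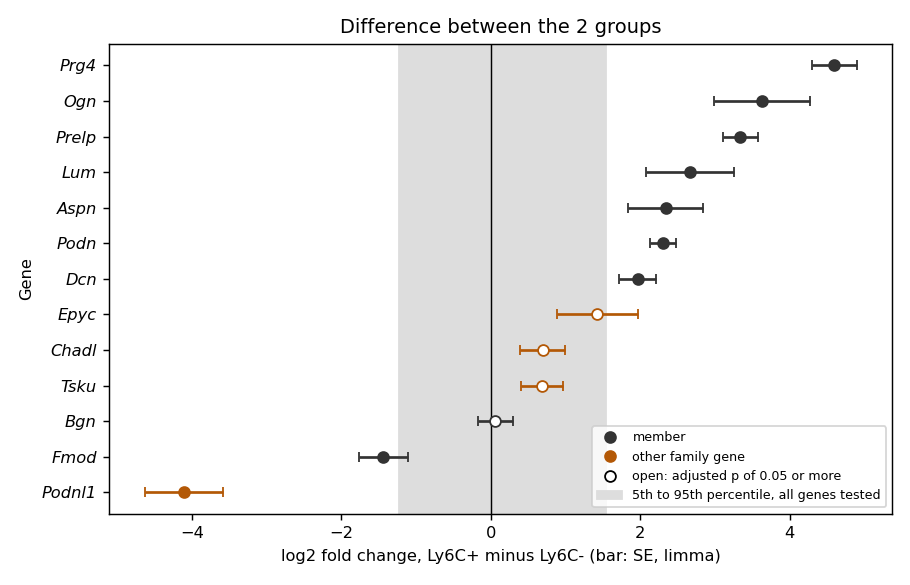
log2 fold change (Ly6C+ minus Ly6C-, limma; bars are SE) of the 9 members tested, in black, and of 4 other family genes tested, in brown. Open circles did not pass; the grey band spans the 5th to 95th percentile of all genes tested, -1.22 to 1.53, and 8 members lie outside it.

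Of the other genes of the family, 4 entered the test, and 1 of them fell. Podnl1, the podocan-like gene and the other class V member, moved against Podn. Podnl1 (chr8:84125989-84132527, plus strand) was at 6.10, 8.27 and 0.773 in Ly6C+ replicates 1 to 3 and at 96.5, 85.9 and 69.5 in Ly6C- replicates 1 to 3, 16.6-fold higher in Ly6C- pCAFs (22 reads against 252; log2 fold change -4.11, SE 0.52; adjusted p = 0.000262 by limma). The groups were far apart, and the log2 fold change was -3.38 without Ly6C+ replicate 3. The Podn to Podnl1 ratio, a description chosen after the values were seen, was 80.2, 74.1 and 732 in the Ly6C+ libraries against 1.10, 1.14 and 1.91 in the Ly6C- libraries, and the 732 rests on 1 Podnl1 read. The sums of the mural and epithelial markers were also higher in the Ly6C- libraries, though the mural list went both ways, and their part in the Podnl1 and Fmod values was not tested.

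Epyc, the epiphycan gene of the Dcn and Lum cluster, was at 9.15, 15 and 20.9 against 4.92, 1.70 and 10.5. The groups overlapped and Epyc missed the threshold (adjusted p = 0.103 by limma; log2 fold change 1.43, 95% interval 0.23 to 2.62), which it passed without Ly6C- replicate 3 (0.0203). Kera, the keratocan gene between Lum and Epyc, had no read in any library. Chadl, the chondroadherin-like gene, and Tsku, of class IV, missed it at log2 fold changes of 0.69 and 0.68 (adjusted p = 0.155 and 0.133 by limma), and Tsku passed without Ly6C+ replicate 2 (0.0370). Ecm2, next to Aspn, was under the filter with 19 and 5 reads.

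**Figure D3:**
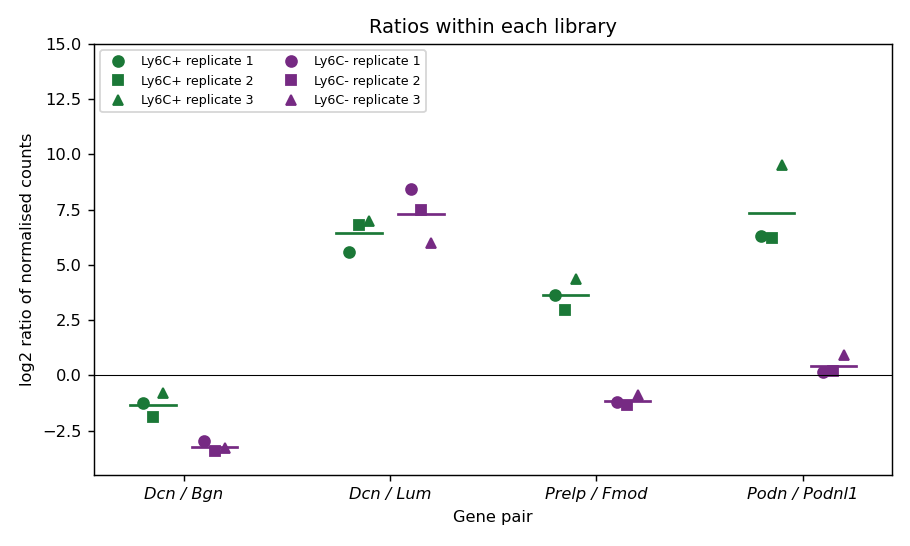
log2 ratio of normalised counts for 4 gene pairs within each library, 3 Ly6C+ (green) and 3 Ly6C- (purple); lines are group means. The groups are apart for Dcn to Bgn, Prelp to Fmod and Podn to Podnl1 and overlap for Dcn to Lum. A ratio above 0 means more reads of the first gene.

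Together the 10 genes took 1.47%, 1.75% and 1.95% of the reads of the Ly6C+ and 1.08%, 1.28% and 1.68% of those of the Ly6C- libraries. The groups overlapped, since Ly6C- replicate 3 was above Ly6C+ replicate 1 (1.73 ± 0.241 against 1.35 ± 0.308; two-sided exact permutation p = 0.2, or 0.4 adjusted over the 4 tests). The make-up of this sum is given as a description. Bgn made up 85.7% to 87.7% of it in Ly6C- and 55.1% to 67.2% in Ly6C+ libraries, Dcn 8.13% to 10.9% against 18.0% to 31.5%, and Prelp 0.745% to 1.04% against 5.80% to 6.06%. Without Bgn the others took 0.566% to 0.877% of the reads in Ly6C+ and 0.155% to 0.208% in Ly6C- libraries, with no overlap.

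**Figure D4:**
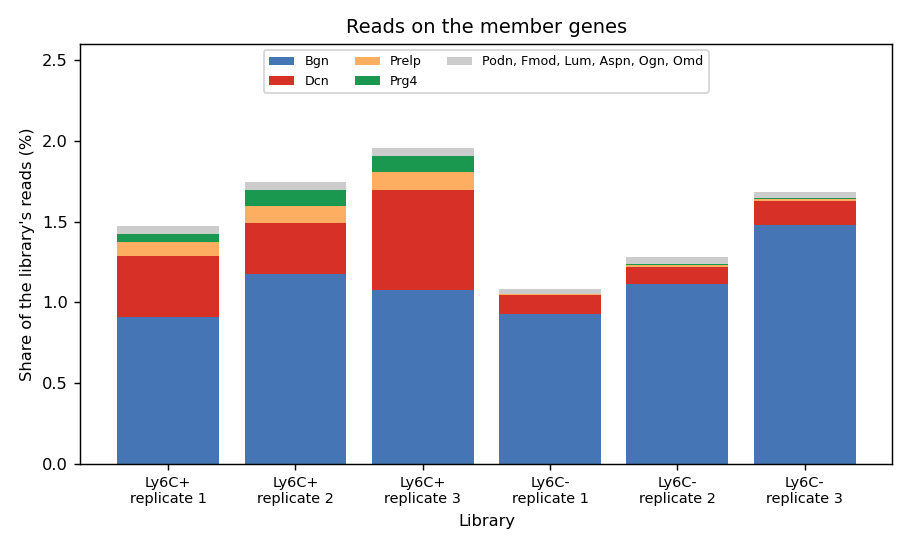
Share of each library's reads (%) on the 10 member genes, stacked, for 3 Ly6C+ and 3 Ly6C- libraries. The Bgn part overlaps between the groups (0.908% to 1.17% and 0.924% to 1.48%), and the Dcn, Prelp and Prg4 parts are taller in the Ly6C+ libraries.

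The spread within a group differed between members. In Ly6C+ libraries the SD was 11% to 12.7% of the mean for Prelp, Podn and Bgn, 32.3% for Prg4 and 34.6% for Dcn. It was 42.8% to 75.3% for Aspn, Fmod, Lum and Ogn. In Ly6C- libraries it was 16.1% for Podn and 22.5% to 36.4% for Dcn, Bgn, Fmod, Prelp and Prg4, but 87.3% to 104% for Ogn, Aspn and Lum, which had 4, 24 and 43 reads there in all.

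In the annotation some members overlap other genes, and whether the counting used strand is not given in the sources used here. The 3′ ends of Prg4 and of Tpr, a nuclear pore gene on the opposite strand, share 524 bases. Tpr stood at 98.8 to 137 in Ly6C+ and 105 to 140 in Ly6C- libraries, and the groups overlapped. Its lowest value was in replicate 1 of each group, as for Prg4. The part of Tpr reads in the Prg4 values was not tested. Aspn, Omd and Ogn lie within the span of Cenpp, a centromere gene on the opposite strand, which stood at 3.01 to 10.8 against 3.94 to 9.18. Podn shares 52607 bases with Scp2 on its own strand, which stood at 50.6 to 58.7 in Ly6C+ and 27.6 to 48.5 in Ly6C- libraries (log2 fold change 0.57; adjusted p = 0.151 by limma). The 3′ end of Podn, at base 108014791, lies outside Scp2, which spans bases 108043839 to 108144998. Cenpp, Tpr and Scp2 were chosen for their position.

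The counts for related genes that follow stand beside the 17.1% called over all genes tested, 9.41% higher and 7.66% lower. Among 22 tested enzymes that build the chondroitin and dermatan sulfate chains there was 1 that rose, 3 fell, and the median log2 fold change was -0.05. Ugdh, which makes the UDP-glucuronic acid used in these chains and in hyaluronan, was at 1003, 935 and 1140 in Ly6C+ replicates 1 to 3 and at 196, 234 and 319 in Ly6C- replicates 1 to 3, 4.11-fold higher (adjusted p = 3.59e-05 by limma). Chst11, a sulfotransferase of chondroitin, stood at 69.5, 92.5 and 64.9 against 279, 269 and 203, 3.31-fold higher in Ly6C- pCAFs (adjusted p = 0.000159 by limma). For both genes the groups were far apart. The other 2 that fell were Chst12, a related sulfotransferase, and Pxylp1, which acts on the linkage region, with log2 fold changes of -0.50 and -0.64. The Chst12 call ended without any 1 of the 6 libraries (adjusted p = 0.0670 to 0.157, limma), and the Pxylp1 call without any but Ly6C- replicate 3 (0.0510 to 0.143). Dse, an epimerase that turns chondroitin into dermatan sulfate, missed the threshold (adjusted p = 0.633 by limma; log2 fold change 0.26, 95% interval -0.39 to 0.91). Of 8 keratan sulfate enzymes tested, only St3gal1, a sialyltransferase that also acts on mucin-type sugars, was called, at 198 ± 29.9 in Ly6C+ and 55.4 ± 8.31 in Ly6C- pCAFs, a fold of 3.58 (adjusted p = 8.69e-05 by limma).

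Among ligands and receptors that the family is known to bind, 3 of 20 tested rose and 8 fell, with a median log2 fold change of -0.23. Those that rose were Fbn1, a fibrillin, Lrp6, a Wnt co-receptor, and Bmp2, a bone morphogenetic protein (log2 fold changes 0.99, 1.20 and 1.63), all named after their values were seen. The Lrp6 call ended without Ly6C+ replicate 1 or 2 or Ly6C- replicate 2 (adjusted p = 0.0525, 0.0857 and 0.0620, limma). That of Bmp2 ended without any 1 Ly6C+ library (0.0947 to 0.134) or without Ly6C- replicate 3 (0.0614). Bmp2 passed the filter only through its Ly6C+ libraries (mean 12.3, against 3.73 in Ly6C- libraries). Of the genes that fell, Tnf passed it only through its Ly6C- libraries (mean 11.6, against 2.95 in Ly6C+ libraries). Neither call is separate support. Tgfb1, Tgfb2 and Tgfb3, the ligands bound by decorin and its relatives, all fell, with log2 fold changes of -2.86, -1.71 and -1.63 (limma adjusted p = 6.73e-05, 0.000468 and 0.000509). Tgfb1 was at 143, 91.0 and 59.5 in Ly6C+ replicates 1 to 3 and at 615, 934 and 538 in Ly6C- replicates 1 to 3, with no overlap. P2rx7, an ATP-gated channel known to work with biglycan in inflammation, was 3.49-fold, the integrin gene Itgb1 2.61-fold and the matricellular gene Ccn4 3.15-fold higher in Ly6C- pCAFs. The biglycan receptor gene Tlr2 missed the threshold (adjusted p = 0.696 by limma; log2 fold change 0.26, 95% interval -0.50 to 1.02), and Tlr4 had 5 reads in all, 4 of them in Ly6C+ libraries. Cd44, a receptor of lubricin, missed it too (adjusted p = 0.777 by limma; log2 fold change 0.11, interval -0.33 to 0.55).

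Among 13 tested proteases and cofactors that process or cleave the family there were 3 that rose and 3 that fell, and the median log2 fold change was 0.42. Bmp1, which trims the pro-forms of biglycan and decorin, was at 2740 ± 567 in Ly6C+ and 2281 ± 897 in Ly6C- pCAFs and missed the threshold (adjusted p = 0.524 by limma; log2 fold change 0.34, interval -0.33 to 1.00). Its cofactor gene Pcolce rose (log2 fold change 0.73), a call that ended without Ly6C+ replicate 1 or 2 (adjusted p = 0.0525 and 0.0559, limma) and after quantile normalization (0.179). Adamts1, a protease of large proteoglycans, and Ctsb, a lysosomal protease, rose by folds of 3.49 and 2.12. The collagenase gene Mmp13, the gelatinase gene Mmp9 and the membrane-bound Mmp14 fell, with log2 fold changes of -6.41, -3.67 and -0.93. Mmp13 was at 126, 121 and 510 in Ly6C- replicates 1 to 3, and without Ly6C- replicate 3 its log2 fold change was -5.73. Its Ly6C+ mean was 1.42, so it passed the filter only through its Ly6C- libraries and its call is no separate support.

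Of 17 collagens and fibril partners tested, 7 rose and 2 fell, with a median log2 fold change of 0.40. The 7 include Comp, which, as given above, passed the filter only through its Ly6C+ libraries. Dpt encodes dermatopontin, a small matrix protein that binds decorin. Its level was 4447 ± 275 in Ly6C+ and 259 ± 40.4 in Ly6C- pCAFs, a fold of 17.2 (adjusted p = 1.41e-07 by limma). Col3a1, a fibrillar collagen that decorin and biglycan are known to accompany, was 1.95-fold higher (30585 ± 1687 and 15688 ± 3650; adjusted p = 0.00852 by limma). The main fibrillar collagen genes Col1a1 and Col1a2 had overlapping groups (6237 ± 503 and 6643 ± 643; 23667 ± 2787 and 23475 ± 4284), and neither passed the test. Col12a1, a collagen on the surface of fibrils, was 2.26-fold higher in Ly6C- pCAFs. Lox, which cross-links collagen, is among the 7 that rose, but its call ended without any 1 library other than Ly6C- replicate 3 (adjusted p = 0.0819 to 0.161, limma). The other that fell was Col6a3, named after its value was seen, whose call ended without Ly6C+ replicate 1 or 2 or Ly6C- replicate 2 (adjusted p = 0.0914, 0.0544 and 0.0578, limma).

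Of 8 other secreted proteoglycan and hyaluronan genes tested, 3 rose and 2 fell, with a median log2 fold change of 0.50. Srgn, the proteoglycan of secretory granules, known from blood cells, was at 409 ± 77.9 in Ly6C+ and 38.2 ± 12.2 in Ly6C- pCAFs, a fold of 10.7 (adjusted p = 6.59e-06 by limma). Cd3e, given above, rose as well, and the macrophage sums overlapped between the groups. Of the macrophage markers tested, Lyz2 rose (130 ± 122 against 10.4 ± 13.2; adjusted p = 0.0124 by limma) and 5 were uncalled. The part of T cells or macrophages in the Srgn value was not tested. The hyaluronan synthase gene Has1 rose as well, at a log2 fold change of 3.31, and so did Col18a1, at 0.91. Col15a1, a basement membrane proteoglycan, fell by 1.56 on the log2 scale and agrin (Agrn) by 0.82. The Col18a1 call ended without Ly6C+ replicate 1 or 3 or Ly6C- replicate 2 (adjusted p = 0.0522, 0.0535 and 0.0718, limma). The Agrn call ended without Ly6C+ replicate 1 or 2 or Ly6C- replicate 1 or 3 (0.0798, 0.153, 0.0652 and 0.0963).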

How the data were processed

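The 6 libraries hold 3′ end mRNA of sorted fibroblasts. The deposited table holds signal values, that is, gene counts divided by 1 size factor per library by the authors. Per the submitters' processing notes, bcl2fastq, STAR 2.4.2a and HTSeq were used with mm10. The tool behind the size factors, the annotation and the use of strand are not given in the sources used here. Within each library all values were whole multiples of 1 step (100% of them, tolerance 0.001), which gave back whole reads, 1176909 to 2818269 a library.

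The test was limma 3.58.1 in R 4.3.3 on log2(deposited value + 1), with a mean-variance trend, no block, a mean value of at least 5, and Benjamini-Hochberg adjustment over 9646 genes at 0.05. It was also run on simulated counts that gave all genes the same setting for spread, so that run does not give the error rates for these data. Same-group libraries differed by more than sampling noise. Alternatives were other pseudocounts, filters, scalings and priors, a block for the replicate number, the removal of each library in turn, and edgeR 4.0.16 and DESeq2 1.42.0 on recovered reads. Ratios and shares had exact permutation tests over libraries. Coordinates came from GENCODE M21 (GRCm38) and promoters from RefSeq. Python 3.11.15 drew the figures.

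The members, the lists of related genes and the tests were chosen with earlier results of these data known. All members are named. From each related list, up to 6 genes past the test with the smallest p could be named, and others in the text were chosen after their values were seen.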

Additional observations from a re-analysis of the deposited data

How the results depend on the processing

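Over 20 alternatives, 5 to 7 members rose and 0 or 1 fell. The 5 came without Ly6C+ replicate 1, where Lum and Aspn lost their calls, and the 0 without Ly6C+ replicate 1 or Ly6C- replicate 2, where Fmod lost its call. Dcn, Prelp, Podn, Prg4 and Podnl1 kept direction and call in all 20, and Ogn in the 19 that tested it. Bgn was called in none. Its log2 fold change of 0.06 turned to -0.14 with libraries scaled to their own totals and -0.32 after quantile normalization, and spanned -0.12 to 0.27 with 1 library left out. Of other uncalled genes, Bmp1 turned to -0.059 after quantile normalization and Cd44 to -0.082 under own-total scaling, and with 1 library left out Dse spanned -0.094 to 0.51, Bmp1 -0.053 to 0.54 and Cd44 -0.016 to 0.24. The log2 difference of Ogn to Aspn, 0.48, was 1.29 with a pseudocount of 1, which lets Ly6C- replicate 3 enter. Without the mean-variance trend Pxylp1, Chst12, Pcolce, Col18a1, Agrn, Comp, Cilp, Col6a3 and Lox lost their calls, with DESeq2 Chst12 and Bmp2, under own-total scaling Bmp2 and Lox, and after quantile normalization Pcolce and Lox. Own-total scaling shifted the median of all genes by -0.19, and 37.1% of its 1940 calls were higher, against 55.1% of 1647. On recovered reads edgeR called 1721 genes and DESeq2 1549. With the replicate block 2088 genes were called, 7 members higher and 1 lower, and no member's call changed. Libraries of the same number had deviations correlated at 0.13, 0.05 and 0.17, each library's highest with its own number, which is a hint from the data and not the design. Depth limits Omd, Ogn, Aspn and Lum in Ly6C- libraries, at 0, 4, 24 and 43 reads.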
